A study of Mus musculus with 24 samples.

Results

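Nuclear genes of the mitochondrial respiratory chain were followed through 4 cell types of mouse bone marrow in 2 inbred strains. Each probe took the RefSeq symbol of its gene ID in the array annotation, or the annotation's own symbol where RefSeq had none. The members are the genes whose symbol begins with 1 of 16 prefixes (Ndufa, Ndufb, Ndufc, Ndufs, Ndufv, Sdha, Sdhb, Sdhc, Sdhd, Uqcr, Cox4, Cox5, Cox6, Cox7, Cox8 and Atp5). These were 91 of the 19057 genes named on the array, measured by 142 probes. Messenger RNA was read in a single colour on 24 Illumina bead arrays (mouse WG-6 v2), 3 for each of 8 groups. LSK cells carry both Sca-1 and c-Kit and none of the lineage markers, and are labelled as stem and multilineage cells. The L-S-K+ progenitors, labelled as committed, carry c-Kit without Sca-1. The mature cells were myeloid (Gr1+, labelled granulocytes) or erythroid (Ter119+, labelled erythrocytes). All came from primary bone marrow of the strains labelled C57Bl/6 (B6) and DBA2 (D2). The labels give no treatment, allele, age, slide or scan date. They do not say whether the 3 arrays of a group came from separate mice, so errors and p-values describe the spread between these arrays, which may be technical.

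The respiratory chain lies in the inner mitochondrial membrane. Complex I (NADH dehydrogenase) and complex II (succinate dehydrogenase) pass electrons to ubiquinone, complex III hands them on to cytochrome c, and complex IV (cytochrome c oxidase) passes them to oxygen, while complexes I, III and IV pump protons. ATP synthase lets the protons flow back and makes ATP. In bone marrow, stem cells are known for relying largely on glycolysis, and erythroid cells take their mitochondria apart as they mature.

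A probe counted as detected on an array where its detection p was under 0.01, and a gene was tested where at least 1 group detected a probe on each of its 3 arrays. This held for 73 of the 91 genes and 101 of the 142 probes, and 57 genes were detected on all 24 arrays. By complex, 5 of 6 core and 24 of 28 accessory subunits of complex I were tested, with 2 of 4 of complex II, 6 of 7 of complex III, 11 of 17 of complex IV and 13 of 16 of ATP synthase. So were 11 of 12 assembly factors, which help to build complexes I and II without staying in them, and the pseudogene Ndufs5-ps. Not tested were Ndufs1, Ndufb2, Ndufb4, Ndufb9, Ndufb11, Sdha, Sdhd, Uqcrfs1, Cox4i2, Cox7a2, Cox7b, Cox7b2, Cox8b, Cox8c, Atp5e, Atp5k, Atp5md and Ndufaf6, of which 15 were detected on no array by any probe. A gene with several kept probes is represented by the one with the highest mean level, and levels are log2 intensities after background correction and quantile normalization. Levels of different genes are not set against each other, since each probe has its own response.

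The mature cell types carried their own markers. The Gr1+ list (8 of 9 genes tested) lay at a mean level of 13.02 to 13.23 on Gr1+ arrays. The Ter119+ list (5 of 9) lay at 11.64 to 12.34 on Ter119+ arrays. The LSK list (3 of 7) lay at 8.52 to 8.91 on LSK and 7.32 to 8.02 on progenitor arrays. Its Mecom had means of 4.53 to 4.93 in every group. The progenitor list (6 of 6) lay at 9.92 to 10.23 on progenitor and 8.80 to 9.15 on LSK arrays. Of that list, Kit (-0.78) and Cd34 (-0.58) were lower in progenitors than in LSK cells. Myb, Mpo, Elane and Prtn3 were higher (0.24 to 4.31). Other cells' markers were also present. The B lymphoid list (3 of 6 tested: Cd79b, Vpreb1 and Igll1) lay at 9.89 to 10.40 on Ter119+ arrays and at 5.11 to 7.23 on all others, while the other 3 of its genes were detected on no array. The mast cell and basophil list (3 of 4 tested) lay at 8.37 to 9.92 on Ter119+ arrays and 4.91 to 6.82 elsewhere, and the eosinophil list (2 of 2) at 8.41 to 9.82 and 5.28 to 7.98. The T and NK cell and the monocyte and macrophage lists lay at 5.39 to 6.65 on arrays of both mature cell types and at 4.25 to 5.18 on LSK and progenitor arrays. The Gr1+ list lay at 10.46 to 11.03 on Ter119+ arrays, at 10.11 on D2 LSK replicate 2 and 10.27 on D2 progenitor replicate 3. It lay at 8.67 to 9.47 on the other LSK arrays and at 7.72 to 8.61 on the other progenitor arrays. D2 LSK replicate 2 had the fewest detected probes (12.6% of all, against up to 27.4% on B6 Ter119 replicate 3) and detected 58 of the 73 tested members. The part of these cells and of array quality in the results was not tested, beyond the values without single arrays given below. In such bulk RNA, fewer cells of a type and less RNA per cell cannot be told apart.

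The promoter windows of 4 members of 4 different complexes are shown because all 4 genes were lower in Gr1+ cells than in progenitors and lower in D2 than in B6 Ter119+ cells. They were picked after values and motif matches were seen. Each is the 250 bases before the gene's start, from RefSeq on build GRCm38.p6, 5′ to 3′ along the gene, and all 4 genes lie on the minus strand. Capitals mark matches on either strand to GCGCATGCG, a motif bound by the factor NRF1, or to CCGGAAG, the core bound by ETS factors. The windows are those of Ndufs3 (chr2:90904722-90904971), Uqcr11 (chr10:80406822-80407071), Cox6a1 (chr5:115348959-115349208) and Atp5g2 (chr15:102671048-102671297).
Ndufs3: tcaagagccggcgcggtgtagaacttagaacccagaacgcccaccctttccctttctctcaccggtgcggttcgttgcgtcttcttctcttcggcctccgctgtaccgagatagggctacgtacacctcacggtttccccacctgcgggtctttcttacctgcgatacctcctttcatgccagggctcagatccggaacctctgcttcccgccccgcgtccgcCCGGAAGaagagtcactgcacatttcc
Uqcr11: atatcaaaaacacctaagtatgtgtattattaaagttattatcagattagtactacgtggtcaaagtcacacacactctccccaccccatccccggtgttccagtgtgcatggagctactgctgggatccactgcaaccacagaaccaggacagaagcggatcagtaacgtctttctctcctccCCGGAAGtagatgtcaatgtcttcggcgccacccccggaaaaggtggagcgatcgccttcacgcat
Cox6a1: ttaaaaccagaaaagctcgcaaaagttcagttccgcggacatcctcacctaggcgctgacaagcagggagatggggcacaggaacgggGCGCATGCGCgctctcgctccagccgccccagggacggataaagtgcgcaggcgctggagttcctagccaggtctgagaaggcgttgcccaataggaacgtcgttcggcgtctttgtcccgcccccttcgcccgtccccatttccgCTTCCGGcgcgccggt
Atp5g2: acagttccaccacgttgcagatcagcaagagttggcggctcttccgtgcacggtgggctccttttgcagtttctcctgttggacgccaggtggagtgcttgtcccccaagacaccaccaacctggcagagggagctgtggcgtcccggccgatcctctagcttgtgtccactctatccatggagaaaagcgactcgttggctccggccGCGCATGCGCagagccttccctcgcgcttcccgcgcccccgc
In Cox6a1 and Atp5g2 the NRF1 letters match on both strands at overlapping positions, since the motif reads nearly the same either way. The Cox6a1 window also holds the ETS core on the opposite strand. Ndufs3 and Uqcr11 hold the ETS core alone within these bases. In the longer windows of the table, which add 50 bases after the start, 10 of the 81 windows of the 76 members with an entry held the NRF1 letters (12.3%), against 575 of 32851 windows of all genes (1.75%). The ETS core was in 21 of the 81 (25.9%), against 2910 of all windows (8.86%). These are descriptions of letters and not of bound sites.

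Averaged over all tested members, progenitors had the highest levels of the chain. Taken over the 73 tested members as the difference from each gene's own mean over the 24 arrays, the level was 0.46 ± 0.13 (SD, n = 3) log2 units in B6 and 0.38 ± 0.29 in D2 progenitors. LSK cells gave 0.03 ± 0.06 (B6) and -0.07 ± 0.15 (D2), followed by -0.27 ± 0.08 and -0.30 ± 0.13 for the Gr1+ groups, and 0.08 ± 0.15 and -0.30 ± 0.18 for the Ter119+ groups. No progenitor array of either strain overlapped those of Gr1+ cells in this average. Complex IV was the exception among the complexes in this mean, with 0.34 ± 0.24 in B6 Ter119+ cells. Progenitors gave 0.26 ± 0.25 in B6 and 0.28 ± 0.30 in D2, which lie within that spread. This mean includes Cox6a2, of 11 genes the 1 that passed as higher in Ter119+ cells than in progenitors (2.94) in the test below. The median difference of the 11 was -0.50 with strains averaged and -0.24 within B6. Over all tested members, the 3 arrays of D2 progenitors stood at 0.70, 0.31 and 0.13. The Ter119+ arrays were the only cell type in which all 3 D2 arrays (-0.10, -0.37 and -0.44) lay below all 3 B6 arrays (0.05, 0.24 and -0.06).

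**Figure D1:**
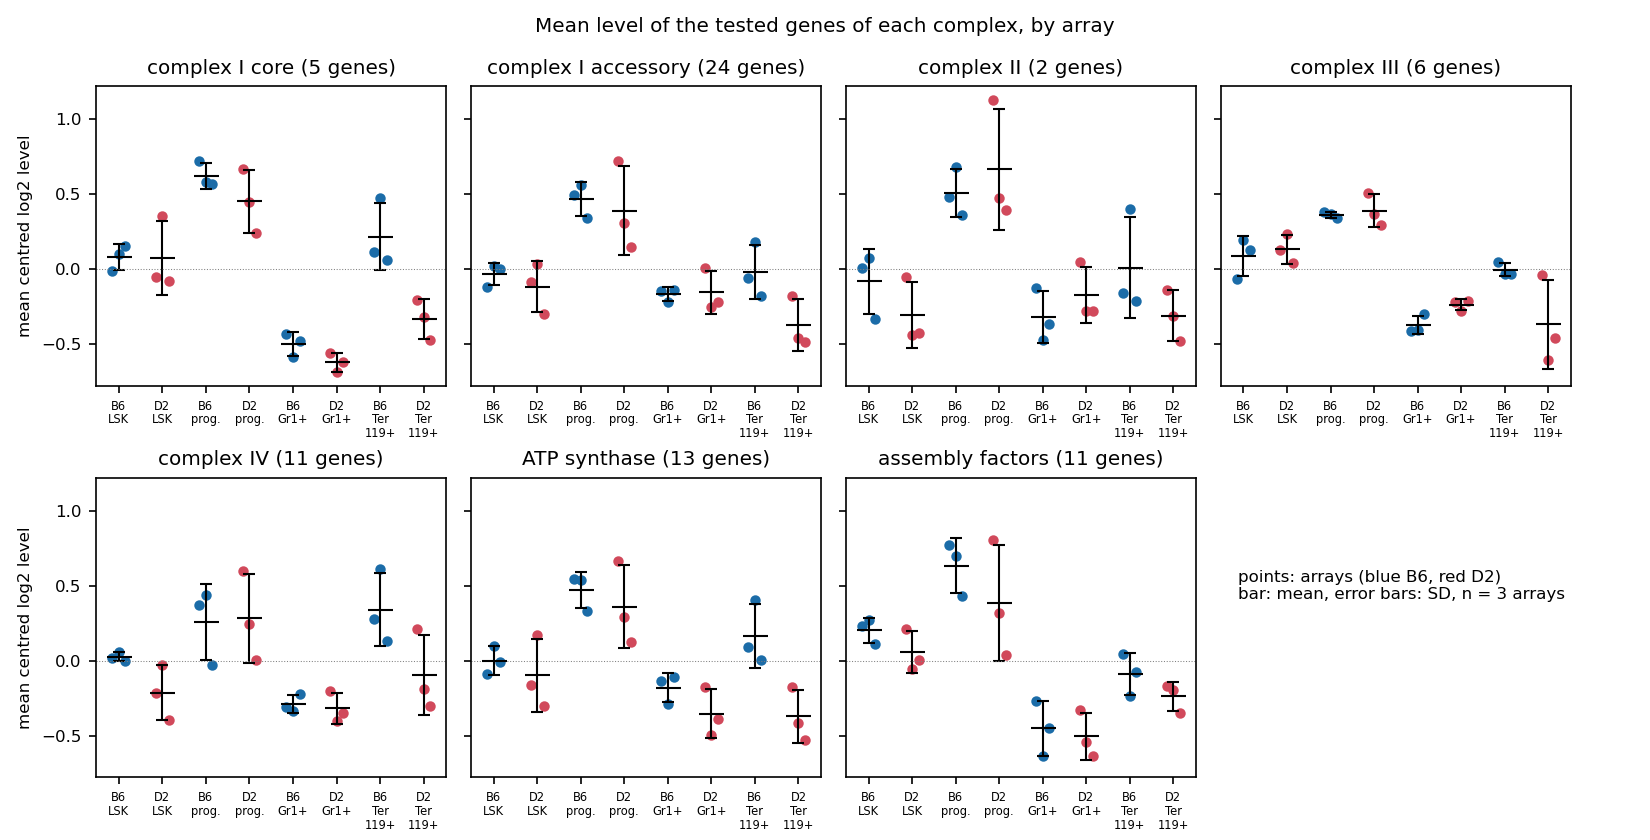
Mean level of the tested members of each complex on every array, as the log2 difference from each gene's mean over the 24 arrays (y axis), by strain and cell type (x axis). Points are arrays and bars are group means; over the 73 tested members the progenitor groups stand at 0.46 and 0.38 and the Gr1+ groups at -0.27 and -0.30.

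Between progenitors and LSK cells, 39 of the 73 tested members were higher in progenitors and 3 lower, with strains averaged (limma's moderated test, adjusted p under 0.05 over 7925 genes). Over all genes tested, 21.5% were higher and 21.2% lower. The 3 lower became 1 without D2 progenitor replicate 3. The median log2 difference was 0.47 over the tested members and 0.03 over all genes. Against progenitors, Gr1+ cells had 3 members higher and 52 lower, where all genes gave 29.4% higher and 39.3% lower, with medians of -0.75 and -0.13. Ter119+ cells had 1 member higher and 49 lower, where all genes gave 24% and 32.3%, with medians of -0.56 and -0.10. These comparisons share the progenitor arrays. Scaling each array to its median or its 75th percentile in place of quantile normalization left the medians' directions and cut the calls. Then 7 and 31 members were higher in progenitors than in LSK cells, and 32 and 37 were lower in Gr1+ cells. In Ter119+ cells 6 and 13 were lower, with 1 higher. Shares of all genes called under these scalings are not given in this report, so such counts have no background beside them.

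Within each strain, from the same model, 25 members in B6 and 26 in D2 were higher in progenitors than in LSK cells (12.5% and 14.4% of all genes), and 45 and 43 were lower in Gr1+ cells than in progenitors (32.0% and 31.7% of all genes). For Ter119+ cells against progenitors the counts were 25 lower in B6 and 47 in D2 (23.6% and 24.6% of all genes), with medians of -0.43 and -0.73. Among the 57 members detected on all 24 arrays, 32 were higher in progenitors than in LSK cells (background 23.0%), 41 lower in Gr1+ cells (background 47.4%) and 39 lower in Ter119+ cells (background 42.5%).

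**Figure D2:**
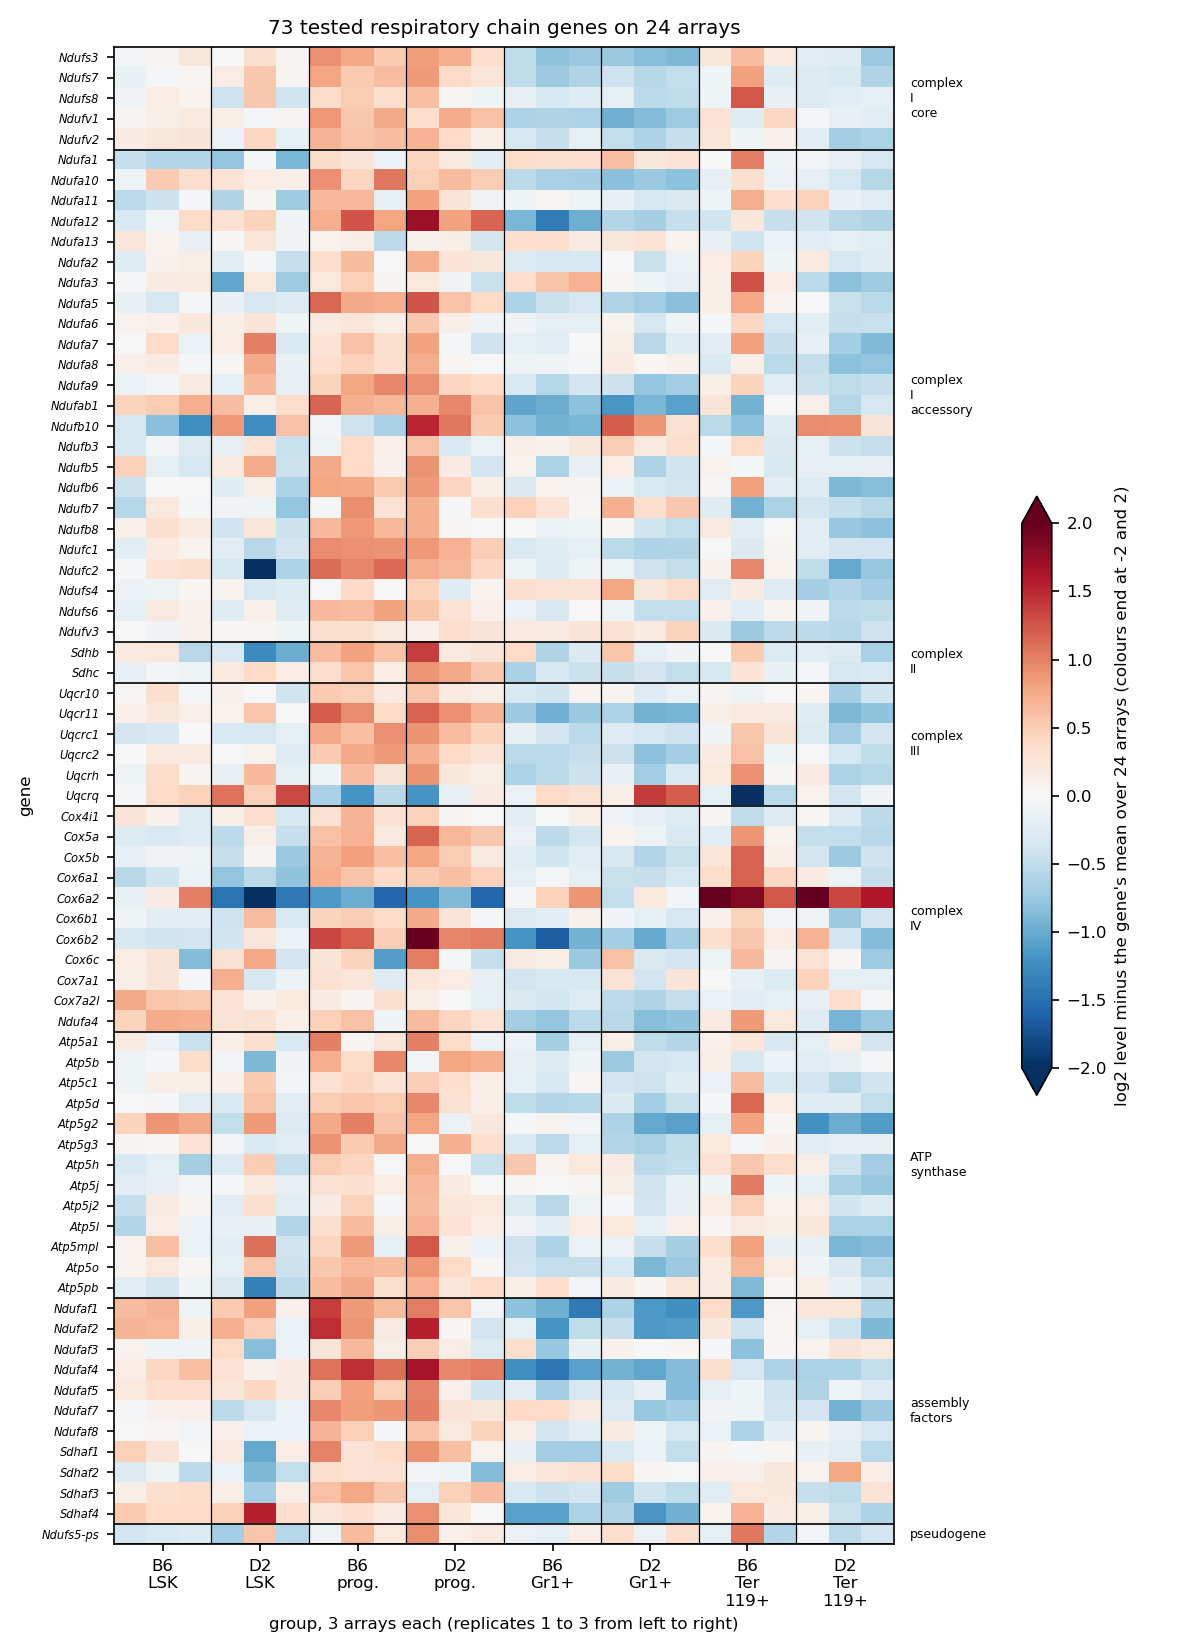
Level of each of the 73 tested members (rows, by complex) on the 24 arrays (columns, by group), as the log2 difference from the gene's own mean over all arrays. Most rows are highest in the progenitor columns, where 39 members were higher than in LSK cells and 52 higher than in Gr1+ cells; Cox6a2 and Uqcrq run otherwise.

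The core of complex I holds the flavin and the iron-sulfur clusters. Of its 5 tested subunits, 4 were higher in progenitors than in LSK cells (median 0.47), all 5 were lower in Gr1+ cells (median -1.12) and 4 were lower in Ter119+ cells (median -0.68). Ndufv1, the subunit that binds NADH and the flavin, had levels of 11.59, 11.66 and 11.73 in B6 and 11.67, 11.51 and 11.60 in D2 LSK cells, and of 12.41, 12.07 and 12.30 and 11.89, 12.28 and 12.12 in progenitors. It fell to 10.92, 10.94 and 10.92 in B6 and 10.58, 10.67 and 10.83 in D2 Gr1+ cells, and stood at 11.83, 11.30 and 11.95 and 11.50, 11.37 and 11.31 in Ter119+ cells. Every Gr1+ array was below every array of the other cell types. The progenitor excess over LSK cells was 0.55 ± 0.12 log2 (SE, adjusted p = 0.000667) and Gr1+ cells were lower than progenitors by 2.58-fold (log2 -1.37 ± 0.12, adjusted p = 4.86e-10). Ndufs3, an iron-sulfur protein family subunit of the same arm, differed by 0.59 ± 0.13, -1.45 ± 0.13 and, for Ter119+ cells, -0.71 ± 0.13.

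Accessory subunits surround that core. In progenitors, 14 of the 24 tested were higher than in LSK cells and none lower, 14 were lower in Gr1+ cells and 16 in Ter119+ cells than in progenitors. Ndufa12 had the most negative log2 differences of these 24 in both mature cell types. Its levels were 9.11, 9.64 and 9.18 in B6 and 10.11, 9.19 and 9.55 in D2 progenitors, against 7.47, 6.99 and 7.40 and 7.80, 7.72 and 7.92 in Gr1+ cells and 7.98, 8.60 and 7.92 and 7.98, 7.84 and 7.79 in Ter119+ cells. Its differences from progenitors were -1.91 ± 0.17 (3.76-fold, adjusted p = 6.89e-10) and -1.44 ± 0.17 (2.72-fold), with no overlap of arrays in either. Ndufab1, the mitochondrial acyl carrier protein, followed at -1.80 ± 0.17 and -1.05 ± 0.17. Ndufc2 had the widest gap between progenitors and LSK cells (1.23 ± 0.21, 2.35-fold, adjusted p = 5.07e-05). Of 7 accessory subunits with a positive difference in Gr1+ cells, only Ndufa13 passed (0.31 ± 0.13, adjusted p = 0.0369), and its groups overlapped. That call was lost without any one of 6 arrays, B6 or D2 progenitor replicate 3 among them (0.21 and 0.23).

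Complex II is also an enzyme of the citrate cycle. Both tested subunits, the iron-sulfur subunit Sdhb and the membrane anchor Sdhc, were higher in progenitors than in LSK cells and lower in both mature cell types. Sdhb had levels of 7.35, 7.37 and 6.60 in B6 and 6.86, 5.88 and 6.16 in D2 LSK cells and of 7.77, 7.97 and 7.73 and 8.54, 7.35 and 7.41 in progenitors. The gap was 1.09 ± 0.23 (2.13-fold, adjusted p = 0.000508), and 0.70 by the gene's other kept probe, which also passed. Within each strain the arrays of these cell types did not overlap, but the highest LSK value (7.37, in B6) was just above the lowest progenitor value (7.35, in D2). Sdhb was lower in Gr1+ cells by -0.67 ± 0.23 (adjusted p = 0.0128), a call lost without D2 progenitor replicate 1 (-0.48, adjusted p = 0.0551). Sdhc had mean levels of 9.47 in LSK cells, 9.94 in progenitors, 8.95 in Gr1+ and 9.26 in Ter119+ cells, with an SE of 0.12 for each difference, and all 3 differences passed.

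Complex III is a cytochrome bc1 dimer. Uqcrc1, a large matrix-side core protein, had levels of 8.98 to 9.36 over the 6 LSK arrays, 9.79 to 10.26 over the 6 progenitor arrays, 8.82 to 9.19 in Gr1+ cells and 8.65 to 9.89 in Ter119+ cells. The progenitor arrays lay above every LSK and Gr1+ array. The differences were 0.96 ± 0.13 against LSK cells (1.94-fold, adjusted p = 2.51e-06), and -1.05 ± 0.13 and -0.81 ± 0.13 for Gr1+ and Ter119+ cells against progenitors. The small subunit Uqcr11 was lower than in progenitors by 3.27-fold in Gr1+ cells (-1.71 ± 0.15) and 2.19-fold in Ter119+ cells (-1.13 ± 0.15).

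Uqcrq, the subunit that lies near the site of ubiquinone binding, ran against its complex. Its levels were 7.87, 8.29 and 8.36 in B6 and 8.99, 8.38 and 9.22 in D2 LSK cells, but 7.25, 6.71 and 7.34 and 6.73, 7.74 and 8.06 in progenitors. In Gr1+ cells it stood at 7.79, 8.29 and 8.20 and 8.03, 9.30 and 9.11, and in Ter119+ cells at 7.70, 5.58 and 7.36 and 7.97, 7.52 and 7.82. It was thus low in progenitors and Ter119+ cells and high in LSK and Gr1+ cells. Progenitors were 2.32-fold lower than LSK cells (-1.21 ± 0.30, adjusted p = 0.00203), and Gr1+ cells were higher than progenitors (1.15 ± 0.30, adjusted p = 0.00156) and than Ter119+ cells (1.13 ± 0.30, adjusted p = 0.00232).

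Complex IV has subunits with tissue isoforms. Of 11 tested members, 5 were higher and 2 lower in progenitors than in LSK cells, 8 were lower and 1 higher in Gr1+ cells, and 6 lower and 1 higher in Ter119+ cells than in progenitors. Cox6a1, the isoform found in most tissues, had levels of 8.98 to 9.67 over the LSK arrays and 10.18 to 10.51 over the progenitor arrays. The gap of 1.08 ± 0.14 (2.11-fold, adjusted p = 1.93e-06) was free of overlap. It was lower in Gr1+ cells (-0.82 ± 0.14), and its difference of -0.29 ± 0.14 in Ter119+ cells did not pass (adjusted p = 0.0923). Cox5a, a nuclear subunit on the matrix side, differed by 0.93 ± 0.17, -0.86 ± 0.17 and -0.77 ± 0.17, and Cox4i1, a subunit of the ubiquitous enzyme, by 0.27 ± 0.15 (adjusted p = 0.157), -0.40 ± 0.15 and -0.56 ± 0.15. Its call in Gr1+ cells was lost without B6 progenitor replicate 2, D2 progenitor replicate 1 or B6 Gr1 replicate 1 (-0.32 to -0.35). Cox7a2l, a factor in the joining of complexes III and IV, was lower in progenitors than in LSK cells by -0.32 ± 0.11 with overlapping groups, and its sign turned under both other scalings.

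Cox6a2, the isoform known from heart and skeletal muscle, had its highest levels in Ter119+ cells. They were 8.61, 8.19 and 7.58 in B6 and 8.33, 7.68 and 7.94 in D2. In Gr1+ cells they were 6.32, 6.81 and 7.22 and 5.84, 6.55 and 6.29, and in progenitors 5.19, 5.35 and 4.76 and 5.14, 5.45 and 4.76, where only 1 of the 3 D2 arrays detected it. Every Ter119+ array lay above every array of the other 3 cell types. Ter119+ cells were higher than progenitors (2.94 ± 0.22, adjusted p = 1.11e-10), and it was the 1 member higher there. Gr1+ cells were also higher than progenitors (1.40 ± 0.22, adjusted p = 5.64e-06). With no background correction these differences were 1.59 and 0.60. Like Cox6a1 (-0.53 ± 0.14), it was lower in Gr1+ than in Ter119+ cells (-1.55 ± 0.22). Among LSK cells the strains parted, with 6.19, 6.50 and 7.34 in B6 and 4.86, 4.31 and 4.91 in D2, where 1 of 3 arrays detected it.

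Cox6b2, an isoform known from testis, was highest in progenitors. Its levels were 7.82, 7.69 and 6.98 in B6 and 8.55, 7.47 and 7.51 in D2 progenitors, 6.08 to 6.74 over the LSK arrays, 4.83 to 5.80 over the Gr1+ arrays and 5.61 to 7.19 over the Ter119+ arrays. Progenitors stood above every LSK and Gr1+ array. It had the widest difference of the 73 tested members between progenitors and LSK cells (1.41 ± 0.23, 2.66-fold, adjusted p = 2.96e-05) and was 4.63-fold lower in Gr1+ cells (-2.21 ± 0.23), or -1.20 with no background correction. The general isoform Cox6b1 differed by 0.49 ± 0.17 and -0.55 ± 0.17, the first a call lost without D2 LSK replicate 1 or 3 or D2 progenitor replicate 1 (0.38 to 0.42). Cox7a1, another heart and muscle isoform, passed in no cell type comparison (-0.03 ± 0.17, -0.23 ± 0.17 and -0.14 ± 0.17).

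**Figure D3:**
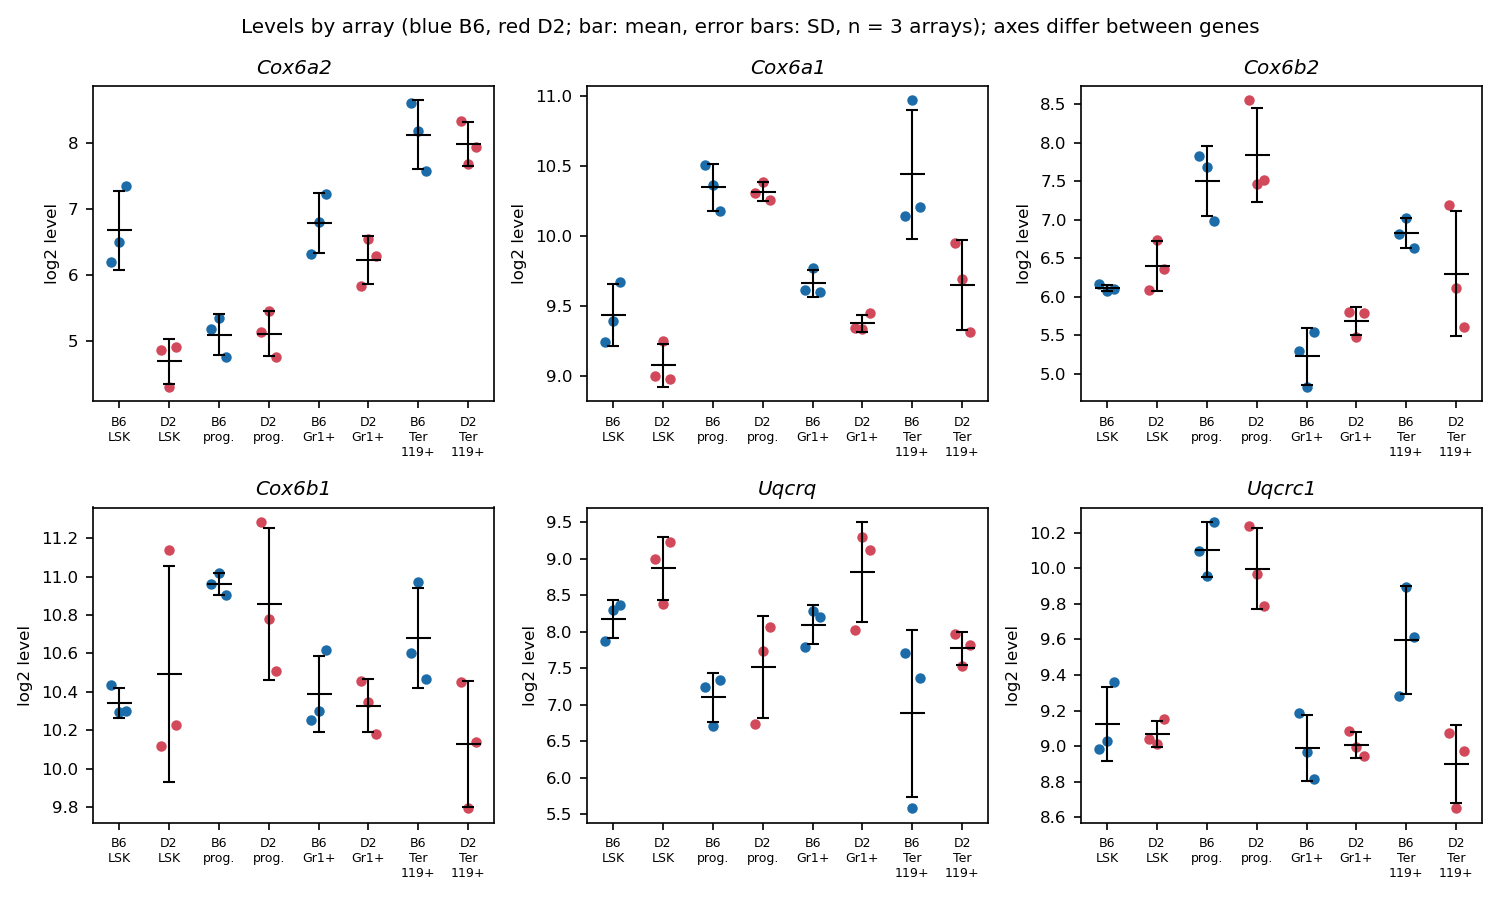
Levels (log2 intensity, y axis) of Cox6a2, Cox6a1, Cox6b2 and Cox6b1 of complex IV and Uqcrq and Uqcrc1 of complex III on every array by strain and cell type (x axis); points are arrays, bars are group means and error bars their SD. Cox6a2 is highest in Ter119+ cells (7.58 to 8.61) and Uqcrc1 in progenitors (9.79 to 10.26) lies above its LSK and Gr1+ arrays; levels are not comparable between panels.

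ATP synthase has a catalytic head, a rotating ring of c subunits and a peripheral stalk. Of its 13 tested subunits, 6 were higher in progenitors than in LSK cells. Against progenitors, 9 were lower in Gr1+ and 9 in Ter119+ cells. By the probe used for each gene, none passed the other way. Atp5b, the catalytic beta subunit, had levels of 13.57, 13.63 and 14.02 in B6 and 13.61, 12.77 and 13.59 in D2 LSK cells and 14.38, 14.02 and 14.62 and 13.61, 14.44 and 14.38 in progenitors. The groups overlapped, with D2 progenitor replicate 1 (13.61) among the LSK values. The difference was 0.71 ± 0.17 (1.64-fold, adjusted p = 0.00153), and Gr1+ and Ter119+ cells differed from progenitors by -0.91 ± 0.17 and -0.70 ± 0.17. The c-ring genes Atp5g2 and Atp5g3 had mean levels of 8.50 and 12.55 in progenitors and 7.50 and 11.55 in Gr1+ cells (SE of the differences 0.21 and 0.12), and differed in Ter119+ cells by -0.99 ± 0.21 and -0.58 ± 0.12. The peripheral stalk gene Atp5pb was higher in progenitors than in LSK cells by 0.97 ± 0.18 and lower in Ter119+ cells by -0.68 ± 0.18, while its -0.36 ± 0.18 in Gr1+ cells did not pass (adjusted p = 0.0863). The 2 probes of Atp5a1, the alpha subunit, passed in opposite directions for Ter119+ cells (-0.49 and 0.35). For progenitors against LSK cells the probe used gave 0.47, which did not pass, and the other -0.47, which did. No direction is given for this gene, though its used probe is in both counts of 9.

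Assembly factors held the member with the widest difference in Gr1+ cells. Of 11 tested, 4 were higher in progenitors than in LSK cells, 9 were lower in Gr1+ and 8 in Ter119+ cells than in progenitors. Ndufaf4, which helps to build an early intermediate of complex I, had levels of 8.55, 8.93 and 8.56 in B6 and 9.11, 8.41 and 8.49 in D2 progenitors, 6.23, 6.02 and 6.37 and 6.51, 6.43 and 6.60 in Gr1+ cells and 7.77, 7.12 and 6.83 and 6.83, 6.83 and 6.97 in Ter119+ cells. All progenitor arrays lay above all arrays of the mature cells. The differences were -2.32 ± 0.15 in Gr1+ cells (4.99-fold, adjusted p = 3.33e-12), the widest of the 73 tested members, and -1.62 ± 0.15 in Ter119+ cells (3.07-fold). With no background correction the first was -1.57. The other kept probe of Ndufaf4 gave -1.33 in Gr1+ cells, where both probes passed, and -0.59 in Ter119+ cells, where 1 of 2 passed. Ndufaf1, another early complex I factor, differed by -1.77 ± 0.25 and -0.87 ± 0.25. Sdhaf3, a factor for complex II, was detected on none of the 6 Gr1+ arrays, so its fall there was at least 1.30-fold.

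**Figure D4:**
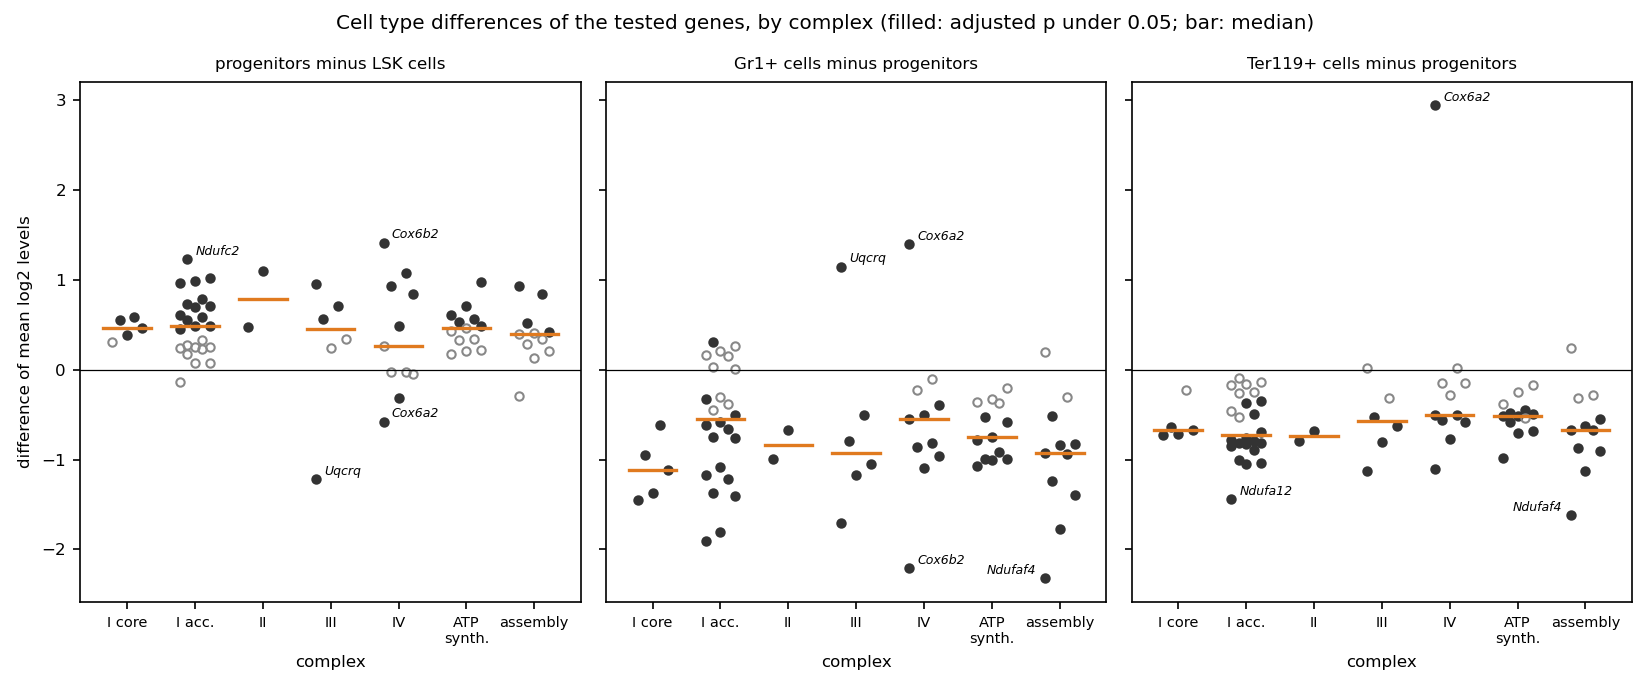
Log2 difference (y axis) of each tested member but the pseudogene (points, grouped by complex on the x axis) for progenitors against LSK cells and for each mature cell type against progenitors; filled points passed the test and the horizontal marks are medians. Medians over the 73 tested members are 0.47, -0.75 and -0.56, with Cox6a2 the 1 member higher in Ter119+ cells.

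Set against each other, the mature cell types differed less uniformly. Of the 73 tested members, 7 were higher and 22 lower in Gr1+ than in Ter119+ cells, against 27.2% and 31.6% of all genes, with a median of -0.21 where all genes gave -0.07. The count of higher and lower members was 0 and 3 under median scaling and 0 and 7 under 75th percentile scaling. Within B6 it was 5 and 23 (24.1% and 25.3% of all genes) and within D2 6 and 5 (20.9% and 22.5%). All 6 subunits of complex I among the 7 were accessory, led by Ndufb7 with 6.66 to 7.34 over the Gr1+ arrays and 5.69 to 6.40 over the Ter119+ arrays (0.93 ± 0.19, adjusted p = 0.000158). Ndufv3 (0.77 ± 0.10) and Ndufs4 (0.76 ± 0.14), both near the NADH-binding end of the complex, and Ndufa8, Ndufa13 and Ndufb3 (0.42 to 0.47) followed, and Uqcrq was the seventh. The Ndufb3 call was lost without any one of 6 arrays (0.34 to 0.40). Another 4 accessory subunits were lower in Gr1+ cells, with Ndufab1 at -0.75 ± 0.17, and the 24 tested split into 12 positive and 12 negative differences. Of the core subunits, Ndufs3 and Ndufv1 were lower, both at -0.73.

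Between the strains the members differed most often in Ter119+ cells. There 15 of the 73 tested members were lower and 1 higher in D2, against 8.71% of all genes lower and 7.99% higher, and the median was -0.41 where that of all genes was near 0. In LSK cells 2 members passed (Cox6a2 and Ndufc2, both lower in D2, against 8.28% of all genes), in progenitors 1 (Ndufb10, against 5.68%) and in Gr1+ cells 2 (Ndufaf7 lower and Ndufb10 higher, against 5.75%). These small counts rested on single arrays, with 4 in LSK cells without D2 LSK replicate 2 and 1 without B6 LSK replicate 2 or 3, 0 in progenitors without B6 progenitor replicate 2 or 3 or D2 progenitor replicate 1 or 2, and 1 in Gr1+ cells without D2 Gr1 replicate 1. The 1 higher in D2 Ter119+ cells became 0 without B6 Ter119 replicate 2 or D2 Ter119 replicate 1 or 2. The medians were -0.06 in LSK cells, -0.10 in progenitors and -0.05 in Gr1+ cells. Averaged over the 4 cell types, 15 were lower and 2 higher in D2, against 11.5% and 9.14% of all genes. The 15 lower were Ndufv2, Ndufa3, Ndufb6, Ndufb8, Ndufc1, Ndufc2, Ndufs6, Uqcrc2, Cox5b, Cox6a1, Cox6a2, Ndufa4, Atp5g2, Atp5g3 and Ndufaf7. Ndufv2, Ndufa3, Ndufb6, Ndufc2, Cox5b, Cox6a1, Ndufa4 and Atp5g2 were also among those lower in D2 Ter119+ cells. Whether the strain difference varied between cell types was tested by an F test per gene, which 1 member passed (Cox6a2), against 5.82% of all genes. That count was 0 without B6 LSK replicate 3 and 2 without D2 LSK replicate 2, B6 progenitor replicate 2, B6 Ter119 replicate 1 or D2 Ter119 replicate 1. The unadjusted p was under 0.05 for 8 members, so for the other members a difference confined to Ter119+ cells is not shown.

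Atp5g2, which codes for the c subunit, had the widest drop in D2 Ter119+ cells. Its levels were 7.78, 8.76 and 7.99 in B6 and 6.75, 6.96 and 6.83 in D2 Ter119+ cells, with a difference of -1.33 ± 0.29 (2.51-fold, adjusted p = 0.00257). The strains were apart there, and in Gr1+ cells too (7.93, 8.03 and 7.90 against 7.34, 6.93 and 6.87), where the -0.91 ± 0.29 did not pass (adjusted p = 0.0743). Ndufa3, an accessory subunit of complex I, had 9.45, 10.61 and 9.48 in B6 and 8.79, 8.51 and 8.62 in D2 (-1.21 ± 0.28, adjusted p = 0.00445). Ndufa4, named for complex I but a subunit of complex IV, had 10.63, 11.32 and 10.68 in B6 and 10.20, 9.54 and 9.72 in D2 (-1.06 ± 0.21, adjusted p = 0.00113). Cox5b, which binds zinc in complex IV, had 10.60, 11.53 and 10.48 and 9.99, 9.62 and 9.93 (-1.02 ± 0.23, adjusted p = 0.00388). In each of the 4 genes the B6 and D2 Ter119+ arrays did not overlap, and B6 replicate 2 was the highest. All 4 were also lower in D2 in the average over cell types, so the drop is not shown to be confined to Ter119+ cells.

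The other 11 lower in D2 Ter119+ cells were Ndufc2 (-1.14), Ndufb6 (-0.89), Atp5j (-0.82), Uqcr11 (-0.81), Cox6a1 (-0.79), Atp5d (-0.76), Cox5a (-0.76), Ndufs3 (-0.74), Uqcrc1 (-0.70), Ndufa5 (-0.66) and Ndufv2 (-0.59). They come from complexes I, III and IV and ATP synthase, and neither tested subunit of complex II nor any assembly factor passed. The count of 15 depended on single arrays: it was 8 without B6 Ter119 replicate 2, 6 without D2 Ter119 replicate 2 or replicate 3, and 23 without D2 LSK replicate 2. Atp5g2, Ndufa3, Ndufa4 and Cox5b kept their calls whichever single array was left out. For Ndufa3, Cox5b, Cox6a1, Ndufb6 and Atp5j, which have 2 kept probes, only 1 of the 2 passed when every probe was tested. The probe not used was lower in D2 as well, by -0.93, -0.70, -0.72, -0.34 and -0.43 in that order. Under median and 75th percentile scaling 1 and 3 members were lower in D2 Ter119+ cells, and the median of all genes then shifted by -0.41 and -0.22, while the members' median differed from it by -0.52 in both. Marker lists also differed between the strains' Ter119+ arrays. Of the 6 progenitor markers, 3 were lower in D2 (Elane -1.28, Prtn3 -1.11 and Kit -0.74) and none higher, and the list's mean level was 7.69 to 7.82 in D2 and 8.19 to 8.40 in B6. Of 5 Ter119+ markers 1 was lower (Tspo2, -2.23), with mean levels of 11.64 to 12.27 and 11.86 to 12.34. The Gr1+ list (10.80 to 11.03 in D2 and 10.46 to 10.67 in B6) and the mast cell and basophil list (8.78 to 9.92 and 8.37 to 8.75) did not overlap either, with 0 of 8 and 1 of 3 genes higher in D2 (Mcpt8, 1.72). The other lists overlapped, among them the B lymphoid one, with 1 of 3 genes higher (Cd79b, 0.71). Their part in the strain result was not tested.

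Ndufc2, an accessory subunit of complex I, was also lower in D2 LSK cells, with 6.51, 6.83 and 6.88 in B6 and 6.23, 4.57 and 5.94 in D2. The lowest value was that of D2 LSK replicate 2. The difference of -1.16 ± 0.30 (adjusted p = 0.0128) was -0.66 without that array and no longer passed (adjusted p = 0.0963), nor did it without B6 LSK replicate 2 or 3 (-1.12 and -1.09). With no background correction it was -0.52. Averaged over cell types it was -0.74 ± 0.15. Ndufaf7, a methyltransferase that acts in complex I assembly, had 6.03, 6.02 and 5.82 in B6 and 5.36, 4.87 and 4.95 in D2 Gr1+ cells (-0.90 ± 0.20, adjusted p = 0.0055).

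The level of Cox6a2 in LSK cells was lower in D2 (-1.98 ± 0.31, adjusted p = 7.99e-05), with no overlap. Only 1 of the 3 D2 arrays detected it, so the size is uncertain, and it ran from -0.83 with no background correction to -2.23 under median scaling. Its strain differences were 0.01 ± 0.31 in progenitors, -0.55 ± 0.31 in Gr1+ cells and -0.14 ± 0.31 in Ter119+ cells, none of which passed. The F test of these 4 differences gave 8.57 (adjusted p = 0.0147). With strains averaged, progenitors differed from LSK cells by -0.58, a call lost without any one of 7 arrays (-0.41 to -0.60). They were lower by -1.58 in B6, while D2 gave 0.42, which did not pass.

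Ndufb10 shows how a single probe can set a strain result. The probe used was higher in D2 in progenitors (1.40 ± 0.39), Gr1+ cells (1.69 ± 0.39) and Ter119+ cells (1.25 ± 0.39) and by 1.30 ± 0.19 on average, but the gene's other kept probe was lower in D2 by -2.27 on average, and both passed. No direction is given for this gene. Uqcrq was the other member higher in D2 on average (0.68 ± 0.21, adjusted p = 0.0231).

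**Figure D5:**
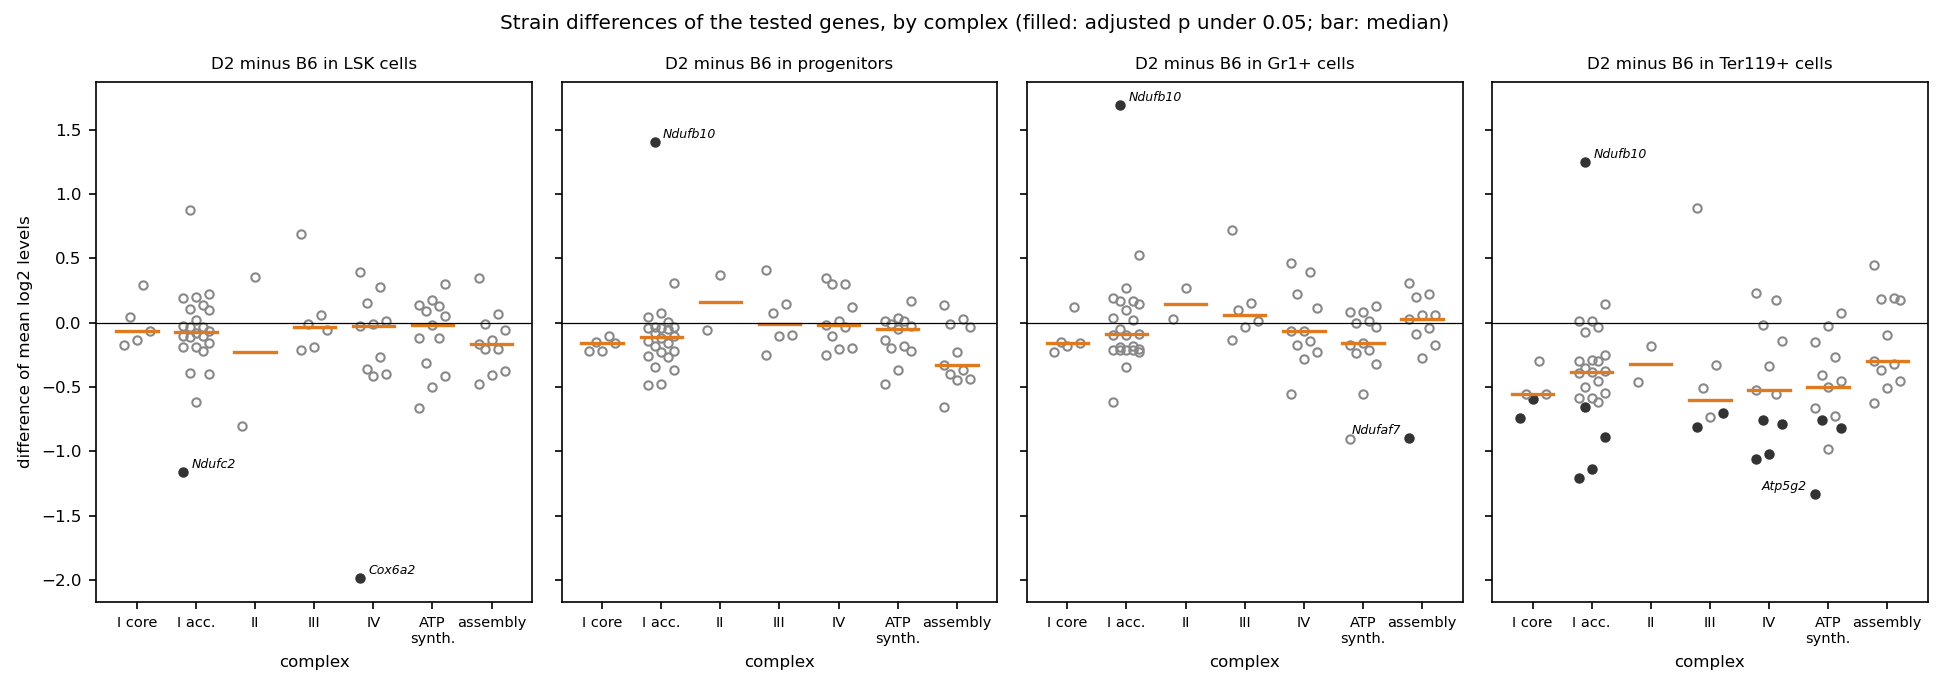
Log2 difference D2 minus B6 (y axis) of each tested member but the pseudogene (points, by complex) in the 4 cell types; filled points passed the test and the horizontal marks are medians. Over all 73 tested members the medians are -0.06, -0.10, -0.05 and -0.41 in LSK cells, progenitors, Gr1+ and Ter119+ cells.

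Genes that work beside the chain were counted from lists drawn up for this tissue. Of 69 tested genes of the mitochondrial ribosome, which translates the subunits coded by mitochondrial DNA, 45 were higher in progenitors than in LSK cells, 62 were lower in Gr1+ and 61 in Ter119+ cells than in progenitors, and 12 were lower in D2 than in B6 Ter119+ cells. Over all genes these shares were 21.5%, 39.3%, 32.3% and 8.71%, against which the counts of the other lists also stand. Examples were Mrps18b, with 1.25 ± 0.13 in progenitors against LSK cells, and Mrpl38, with -2.59 ± 0.14 in Gr1+ cells. Both tested members of the cytochrome c list moved like the chain: Cycs, cytochrome c itself, by 0.98 ± 0.16, -0.80 ± 0.16 and -1.13 ± 0.16, and Cyc1, cytochrome c1 of complex III, by 1.34 ± 0.19, -1.39 ± 0.19 and -0.59 ± 0.19. Of 15 tested citrate cycle and pyruvate dehydrogenase genes, 6 were higher in progenitors, 11 were lower in Gr1+ cells and 11 lower with 2 higher in Ter119+ cells. Idh3a, a subunit of isocitrate dehydrogenase, differed by -2.30 ± 0.14 in Gr1+ and -1.59 ± 0.14 in Ter119+ cells.

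Among 22 tested assembly factors outside the prefixes, 10 were higher and 1 lower in progenitors than in LSK cells, with 16 lower in Gr1+ and 18 in Ter119+ cells. Cox17, a copper chaperone for complex IV, was higher in progenitors by 1.03 ± 0.16. Of 18 import genes, 9 were higher and 2 lower in progenitors, and 11 and 10 were lower in the mature cells, with 2 higher in Gr1+ cells. Of 6 genes for exchange and control of ATP synthesis, 4 were higher in progenitors and 5 and 4 were lower in the mature cells. Atpif1, the inhibitor of ATP synthase, was lower in Gr1+ than in Ter119+ cells by -1.55 ± 0.18. Of 13 regulators and mitochondrial DNA maintenance genes, 1 was higher in progenitors than in LSK cells (Pprc1, a coactivator, 0.90 ± 0.23), a smaller share than the 21.5% of all genes, 7 were lower and 1 higher in Gr1+ cells, and 6 lower and 1 higher in Ter119+ cells.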

How the data were processed

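Total RNA of 24 samples was biotin-labelled and hybridised to Illumina mouse WG-6 v2 arrays. The deposited raw table gives probe intensity from 67.9 to 46120. It came from GenomeStudio, per the submitters' processing notes, and its values show no background subtraction and no scaling across arrays. A second deposited column per array is a fraction from 0 to 1. It grows with intensity, so 1 minus this fraction served as the detection p. The authors' series matrix holds log2 intensities, within 0.00113 of the raw values after quantile normalization and log2, and served as an alternative. The 24 call columns were not used.

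Intensities were background-corrected (normal-exponential model, neqc, offset 16), quantile-normalized and put on the log2 scale with limma 3.58.1 in R 4.3.3. Of 45281 probes, 34885 carry 1 gene symbol, 18 several and 10378 are not listed in the supplied annotation. After the detection filter, 7925 genes were tested. One linear model had a mean per group (16 residual degrees of freedom, prior 6.74), with two-sided moderated tests and Benjamini-Hochberg adjustment over all 7925 genes (threshold 0.05). Contrasts were those named in the report. Differences carry their SE, levels their SD. The procedure was tested on simulated data, with independent normal noise per gene and known changes in D2 Ter119+ arrays. That simulation held no differences in array quality, cell mixture or normalization, so it does not cover them. Figures were drawn with Python 3.11.15 and matplotlib 3.10.9. The number of arrays limits the precision.

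Genes named are, per complex and comparison, up to 2 called members at each end, called members against their complex's median, members called in the strain average or F test, defining subunits, tissue isoforms and genes whose probes disagree. The members and lists were chosen with earlier results of these data known. Where no array of a group detected a gene, its fold is a bound ("at least") set by the lowest detected signal. The main model did not pair arrays by replicate number. The correlation of deviations over 84 same-numbered pairs ran from -0.38 to 0.36, with a median of 0.08 and 35 over 0.1. Among arrays of the other groups, 13 of 24 arrays correlated best with one of their own number. Whether arrays of the same number share a batch was not tested. Promoter windows are from RefSeq (GRCm38.p6).

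Alternatives were other normalizations, no background correction, the series matrix values, other detection filters, all probes or their mean, replicate number as a block, array weights, each strain alone, each array left out in turn, and 2 pairs of arrays left out.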

Additional observations from a re-analysis of the deposited data

Results flagged for a closer look

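One result stood out by a test of the difference between groups. The strain difference of Cox6a2, the muscle isoform of a complex IV subunit, varied between the 4 cell types (F test in limma, adjusted p = 0.0147). D2 minus B6 was -1.98 in LSK cells, 0.01 in progenitors, -0.55 in Gr1+ cells and -0.14 in Ter119+ cells. Without B6 LSK replicate 3 the F test did not pass (adjusted p = 0.0714). Nor did it pass with no background correction (adjusted p = 0.165), the series matrix values (0.165), median scaling (0.901), 75th percentile scaling (0.304) or no detection filter (0.0595). With 3 arrays a group, single arrays were not screened as outliers.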

How the results depend on the processing

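Counts are of the 73 tested members, given as higher and lower or as either direction. Shares of all genes are given above for the main model only, so the counts below have no background beside them. Median scaling gave 7 and 0 for progenitors minus LSK cells, 1 and 32 for Gr1+ cells minus progenitors, 6 lower for Ter119+ cells minus progenitors, and 0 and 3 for Gr1+ minus Ter119+ cells. For D2 minus B6 it gave 0 in progenitors and Gr1+ cells, 0 and 1 in Ter119+ cells and 1 and 27 on average, with 0 in the F test. The 75th percentile gave 0 lower, 1 higher, 13 lower, 0 and 7, then 0, 0, 0 and 3, 1 and 34, and 0. Array weights gave 5 higher for Gr1+ and 2 for Ter119+ cells minus progenitors, 14 higher for Gr1+ minus Ter119+ cells, strain counts of 7 in LSK cells, 5 in progenitors, 7 in Gr1+ cells, 2 and 35 in Ter119+ cells and 32 lower on average, and 8 in the F test. D2 arrays alone gave 16 and 1 for progenitors minus LSK cells and 6 lower for Gr1+ minus Ter119+ cells, and B6 alone 29 lower for Ter119+ cells. Detection on every array gave 0 higher for Ter119+ cells, 0 for strain in LSK cells, progenitors and Gr1+ cells, 0 higher in Ter119+ cells and 1 on average, and 0 in the F test. No detection filter gave 0 for strain in progenitors, 0 higher in Ter119+ cells, 1 on average and 0 in the F test. The mean of a gene's probes gave 0, 1 in Gr1+ cells, 0, 1 and 2. All probes gave 2 higher for Ter119+ cells, and no background correction or the series matrix 4 for strain in LSK cells. Without D2 LSK replicate 2 and D2 progenitor replicate 1, strain counts were 5 in LSK cells, 5 in progenitors, 28 lower in Ter119+ cells and 24 on average. With D2 progenitor replicate 3 left out in place of the latter, an alternative chosen after seeing the data, they were 4 in LSK cells and 24 lower in Ter119+ cells, with 2 in the F test. Leaving out 1 array gave 32 to 44 higher and 1 to 3 lower for progenitors minus LSK cells, 2 to 4 and 46 to 55 for Gr1+ cells, 1 and 44 to 54 for Ter119+ cells and 6 to 9 and 19 to 26 between them. For strain it gave 1 to 4 in LSK cells, 0 to 1 in progenitors, 1 to 3 in Gr1+ cells, 0 to 1 and 6 to 23 in Ter119+ cells, 2 and 11 to 19 on average, and 0 to 2 in the F test. The replicate block gave 44 higher for progenitors minus LSK cells, 51 lower for Ter119+ cells and 18 lower in D2 Ter119+ cells, and kept all 152 calls of named members. 13 of 24 arrays correlated best with their own number. Signs reversed for Cox6a2 in progenitors minus LSK cells with D2 alone (0.42), Cox7a2l there under median (0.20) and 75th percentile (0.18) scaling, Ndufa4 in Ter119+ cells with B6 alone (0.0916), and Ndufb10 for strain with the mean of its probes (-0.66 in progenitors, -0.42 in Gr1+ cells, -0.60 in Ter119+ cells, -0.49 on average). The cause was not tested. Of the 152 named calls, median scaling lost 99 and 75th percentile scaling 73. Members below background on some arrays, such as Cox6a2 in D2 LSK cells, have levels set partly by the offset.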
